A study of Mus musculus with 12 samples.

Results

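The 36 genes described here encode lysosomal enzymes and membrane proteins, together with Tfeb and Tfe3, transcription factors of lysosomal genes. They were taken by name from a list of lysosome genes, 36 of the 55487 genes in the count table, and all 36 were abundant enough to be among the 14591 genes tested. Earlier results of these data were known when they were chosen. The RNA came from B16F10 cells, a wild-type mouse melanoma line, kept for 24 h in medium from macrophages grown out of bone marrow (BMDM), with 3 libraries per group. M0 denotes medium of macrophages kept for 24 h in control medium (DMEM), M1 medium of macrophages given 20 ng/ml of a cytokine that the labels write as INF-γ, read here as interferon gamma, and M2 medium of macrophages given 20 ng/ml of interleukin-4. In the group called TAM here (tumour-associated macrophages), the macrophages had received 75% medium conditioned by B16F10 cells. Every group, M0 included, therefore received macrophage medium, and none received medium without macrophages. From the labels it is not known whether the added cytokine, or the medium of the tumour cells, was still present in the collected macrophage medium. Nor do they name separate cultures for the 3 libraries of a group. The p-values below therefore reflect the spread among these libraries alone, and that spread may be technical.

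Lysosomes are acidic compartments in which hydrolases break down proteins, glycans and lipids delivered by endocytosis and autophagy. Soluble hydrolases receive a mannose phosphate tag in the Golgi apparatus, made by the phosphotransferase that Gnptab encodes, and are carried to the lysosome by receptors for that tag. TFEB and TFE3 belong with MITF, the master regulator of melanocytes, to the MiT family of transcription factors, which bind E-box sequences in many lysosomal promoters. Melanosomes, the pigment organelles of melanocytes and melanoma cells, share proteins with late endosomes and lysosomes.

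Promoter sequence did not enter the choice of the genes. RefSeq promoter windows on GRCm38.p6, from 250 bases before to 50 bases after a transcription start, were at hand for 31 of the 36 genes (36 windows, since some genes have several starts). The E-box CACGTG, which is its own reverse complement, was present in 12 of the 36 windows (12 genes) and in 7.15% of all 32851 windows. TCACGTG, the E-box with a T in front and part of the element known as CLEAR, was searched on both strands and overlaps CACGTG. It was present in 10 of the 36 windows (10 genes) and in 3.77% of all windows. TCATGTG, a related motif of the MiT family that does not overlap CACGTG, was present on either strand in 5 of the 36 windows (5 genes) and in 3.77% of all windows. The full palindromic CLEAR element of 10 bases was in 0 of the 36 member windows and in 0.326% of all windows. The stretches below hold at least 1 E-box of each of the 12 genes. They read 5′ to 3′ on the strand of the gene, with matches of these 3 motifs, in either orientation, in capitals.
Lamp1, chr8:13159091-13159152, plus strand: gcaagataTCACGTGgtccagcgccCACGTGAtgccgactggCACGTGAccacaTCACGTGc
Mcoln1, chr8:3500435-3500464, plus strand: gggtcgcgcttgTCACGTGttcagttcagg
Ctsa, chr2:164833748-164833772, plus strand: atgagcaaactgTCACGTGAtgcag
Ctsd, chr7:142387908-142387937, minus strand: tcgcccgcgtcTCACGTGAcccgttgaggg
Ctsf, chr19:4855074-4855103, plus strand: caccccgtggtcCACGTGcctcgcgtaaat
Ctsl, chr13:64370739-64370768, minus strand: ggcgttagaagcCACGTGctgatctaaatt
Gla, chrX:134601210-134601239, minus strand: gattgaTCACGTGAgcatctacgTCATGTG
Glb1, chr9:114401018-114401047, plus strand: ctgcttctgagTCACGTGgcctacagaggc
Naglu, chr11:101070009-101070038, plus strand: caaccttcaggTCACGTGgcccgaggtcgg
Gaa, chr11:119267811-119267840, plus strand: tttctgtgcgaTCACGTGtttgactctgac
Sgsh, chr11:119355522-119355551, minus strand: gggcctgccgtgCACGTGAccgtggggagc
Arsa, chr15:89477425-89477454, minus strand: cttcaactcagtgTCACGTGttgtctgctc
Lamp1 holds 4 E-boxes, whose first bases lie at positions −61, −45, −28 and −15 relative to its start, each with a T on its left or an A on its right. Ctsa, Ctsd, Mcoln1 and Gla each have 1 more E-box outside the stretch shown, with its first base at 6, −245, −45 and −194. Of the genes shown, Ctsl and Ctsf were called higher in TAM than in M0, Ctsa, Glb1, Naglu and Sgsh were called lower, and the other 6 were not called. Without M0 replicate 1, Lamp1, Mcoln1, Gla and Ctsd were also called higher. TCACGTG was absent from the windows of Ctsl and Ctsf and present in a window of each other gene shown. Any link between motif and direction was not tested. A match is a description of letters in a window and not evidence of binding.

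The libraries held 15916756 to 20863973 counts. M0 replicate 1 stood apart from the rest. Its log2 levels correlated across genes with those of the other M0 libraries at r = 0.95 and 0.952, against 0.996 for each other within-group pair. The share of counts in ribosomal protein genes was 7.78%, and 3.5% to 4.11% in the other libraries, and the mean merged exon length of its genes, weighted by counts, was 4545 bp against 5817 to 6091 bp. The lysosomal genes deviated with it. Levels are given as CPM, counts scaled to a common library total after TMM scaling, a correction for composition. Relative to the mean of M0 replicates 2 and 3, 10 of the 36 genes were over 1.5 times higher in M0 replicate 1, 6 were over 1.5 times lower and 20 lay between. Ctsf had the highest ratio, 2.53, and Ids the lowest, 0.315. Across the 36 genes the log2 ratio correlated with log2 exon length at r = −0.469 (Spearman's rho −0.482), a description in which all points share 3 libraries. Over 14580 tested genes with a known length the correlation was −0.422 (rho −0.482). With all genes cut by length into 5 equal bins, the median ratio was 1.42 in the bin of the shortest and 0.594 in that of the longest. All 12 libraries entered the test reported first. Counts of called members among the 36 genes are given again without M0 replicate 1, where M0 has 2 libraries. Changes of single genes are given again for many but not all of them. Where no fit is named, a change comes from all 12 libraries. The common dispersion, the squared variation between replicates that all comparisons share, was 0.0324 with that library and 0.00166 without it.

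**Figure D1:**
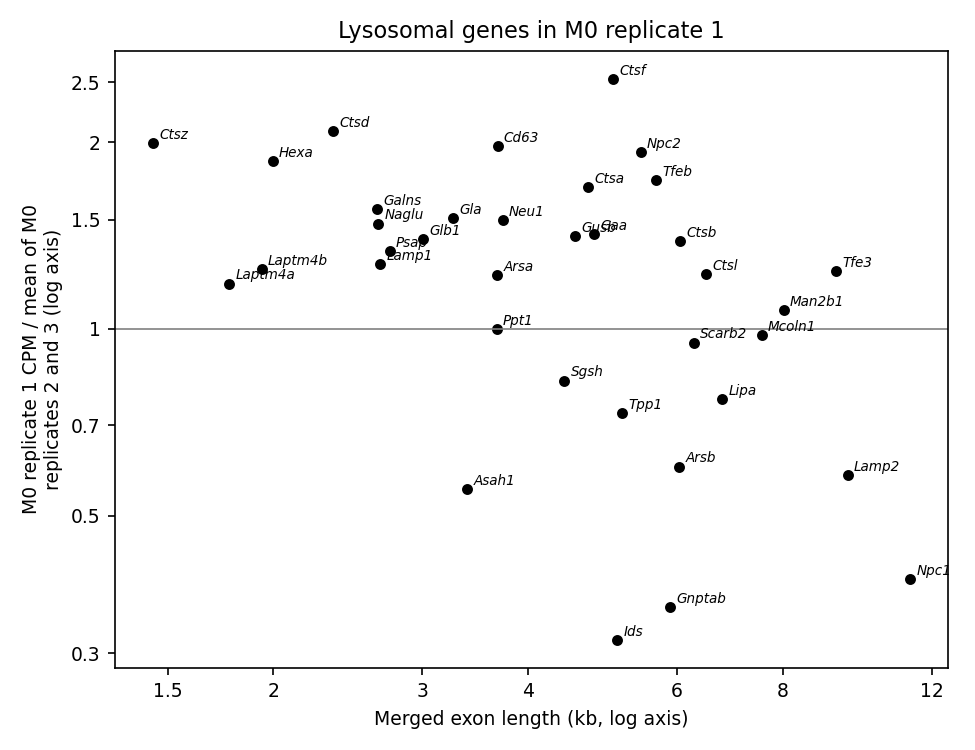
Each point is 1 of the 36 lysosomal genes, with merged exon length in kb on the x axis and CPM in M0 replicate 1 divided by the mean CPM of M0 replicates 2 and 3 on the y axis, both log axes. Short genes such as Ctsz and Ctsd lie near 2 and the longest, Npc1, near 0.4, while Asah1 and Ctsf lie off that trend.

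Markers of other cells were scarce beside melanocyte markers, which were abundant. Of the macrophage markers, Ptprc, Adgre1, Itgam, Tyrobp, C1qa, C1qb, C1qc, Cd163 and Msr1 had 0 counts in all 12 libraries. Others were detected, among them Csf1r, Spi1, Laptm5 and Lyz2 with 8, 38, 49 and 214 counts over all 12 libraries. The 23 macrophage markers summed to 5.32 to 8.13 CPM in M0, 8.22 to 8.48 in M1, 6.02 to 6.72 in M2 and 3.94 to 5.03 in TAM, taken without TMM scaling, and 5 of them were abundant enough to be tested. In M1 the higher sum included Ctss, itself a lysosomal protease gene, at 1.46 ± 0.296 CPM (SD, n = 3) against 0 counts in M0. It also included Cd68, at 4.46 ± 0.413 CPM in M1 and 3.0 ± 0.643 in M0. Cd68 was called higher in M1 than in M2 but was not called against M0. Fcer1g was called lower in M1 than in M0. Cd68, Fcer1g and Coro1a, 3 of the tested markers, were called lower in TAM versus M0. These sums moved with the groups, and their part in the lysosomal results was not tested. They can be set beside the 36 lysosomal genes, which together held 6465 to 7141 CPM in the 11 libraries other than M0 replicate 1 and 9283 CPM in that library. Ctsf, the scarcest of these genes, had 4.18 ± 0.474 CPM in TAM (SD, n = 3). The 8 fibroblast and endothelial markers summed to 9.46 to 10.7 CPM in TAM and 3.19 to 4.4 in M0, mainly through Col1a1 (9.35 ± 0.861 CPM in TAM and 1.99 ± 0.54 in M0, SD, n = 3), and their part was not tested either. Neutrophil markers summed to at most 0.402 CPM and lymphocyte markers to at most 1.11 CPM in any library. The 8 melanocyte markers, among them Mitf, Tyr and Pmel, were all tested and summed to 20800.0 to 21000.0 CPM in M0, 19400.0 to 19700.0 in M2, 14000.0 to 14500.0 in M1 and 14600.0 to 15500.0 in TAM. Not every marker was lower. Tyrp1 was called in no comparison, with 7060 ± 228 CPM in TAM and 6510 ± 1500 in M0 (SD, n = 3). In TAM versus M0, Mitf, Tyr, Pmel, Mlana, Sox10 and Slc45a2 were called lower and Dct was not called. In M1 versus M0, Tyr, Dct, Pmel, Mlana and Slc45a2 were called lower, and Mitf and Sox10 were not called. The lower sum went along with the lysosomal changes in M1 and TAM, and its part in them was not tested.

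Per length of merged exons, Psap, Ctsz and Ctsd were among the 5 highest members in every group. Merged exons take in those of all annotated transcripts of a gene and can be longer than the RNA present. The order between genes, here and below, therefore depends on the annotation. In M2, the group closest to M0, Psap, the precursor of the saposins that help to degrade sphingolipids, had the highest level at 301 ± 4.83 RPKM (CPM per kilobase of exon, SD, n = 3). Ctsz, a cysteine carboxypeptidase gene, followed at 254 ± 7.14, then Ctsd, the gene of the aspartic protease cathepsin D, at 229 ± 7.62, and Laptm4a, a small membrane protein gene, at 183 ± 0.358. In M1 Laptm4a came first at 341 ± 15.0 RPKM. In TAM Ctsd, Cd63 and Laptm4a had 262 ± 8.21, 254 ± 11.3 and 253 ± 4.41 RPKM, and the highest and lowest of these 3 means differed by less than the SD of Cd63. Ctsl, the gene of the cysteine protease cathepsin L, stood 23rd of the 36 in M2 at 17.2 ± 0.511 RPKM and 9th in TAM at 72.6 ± 1.59. Gusb, the gene of beta-glucuronidase, moved the other way, from 12th at 42.4 ± 1.65 to 23rd at 11.0 ± 0.637 RPKM. The lowest member in every group was Ctsf, with 442 counts over all 12 libraries.

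**Figure D2:**
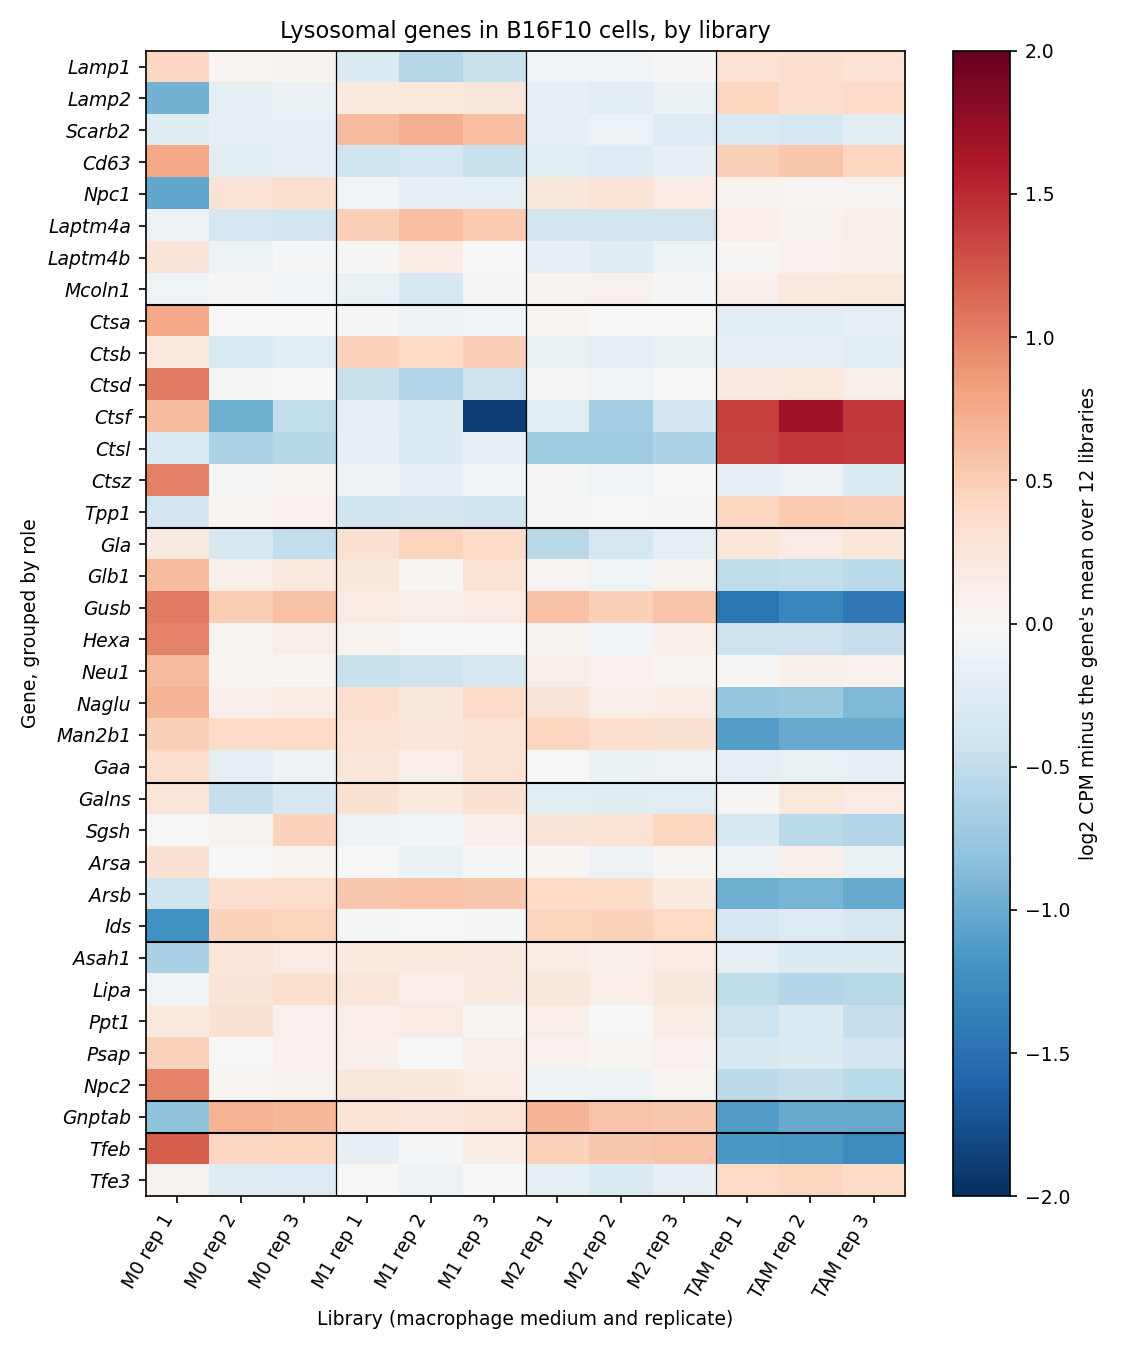
The heat map shows log2 CPM of each lysosomal gene minus its mean over the 12 libraries, with 1 row per gene grouped by role (membrane proteins, proteases, glycosidases, sulfatases, lipid genes, Gnptab, transcription factors) and 1 column per library. The TAM columns are red for Ctsl and Ctsf and blue for Gusb, Man2b1, Naglu, Arsb, Gnptab and Tfeb, and the column of M0 replicate 1 differs from those of replicates 2 and 3.

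TAM versus M0 compared medium of macrophages exposed to tumour medium with medium of untreated macrophages. By role, 5 of 8 glycosidase genes, 4 of 5 lipid genes, 2 of 5 sulfatase genes and Gnptab were lower and 0 of these higher. Of 8 membrane protein genes 2 were higher and 0 lower, and of 7 protease genes 3 were higher and 2 lower. This split by role was less clean without M0 replicate 1. There 1 glycosidase gene was higher and 5 lower, 1 sulfatase gene higher and 3 lower, and all 5 lipid genes and Gnptab lower. In that fit 6 membrane protein genes were higher and 1 lower, and 4 protease genes higher and 2 lower. Ctsl, Lamp2 and Tfe3 were among the genes that rose, and Gusb, Man2b1 and Tfeb among those that fell. A gene was called higher or lower at an adjusted p under 0.05 in edgeR's quasi-likelihood test, adjusted by Benjamini-Hochberg over all genes tested. In all, 6 members were higher and 15 lower, beside 23.3% and 27.2% of all genes tested. The median log2 change was −0.21 over the 36 genes and −0.02 over all genes tested. Without M0 replicate 1, 13 were higher and 18 lower (33.0% and 33.7% of all genes), with a median of −0.16. For each member called with all 12 libraries, in this and the other comparisons, the libraries of the groups did not overlap. How often this held over all genes was not counted, and it adds little to a call. Members that were not called could be apart too. In M1 versus M2 the groups were apart for 13 members in the higher and 12 in the lower direction, with 5 and 3 called. In bulk RNA, fewer cells expressing a gene and less of its RNA per cell cannot be told apart, here and in the other comparisons. Values by library are given in the order of replicates 1, 2 and 3, log2 changes with an approximate standard error (SE), and adjusted p values come from edgeR's test. The SE was derived from that test, as the absolute log2 change divided by the square root of its F statistic.

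Among the proteases, Ctsl (mm10, chromosome 13, 64359337 to 64370890, minus strand) stood at 459.8, 480.2 and 473 CPM in TAM and at 145, 116 and 120.2 CPM in M0. Every TAM library was over 3 times as high as every M0 library. The log2 change was 1.89 ± 0.10 (adjusted p = 1.47e-07), or 1.99 without M0 replicate 1. Ctsf, the gene of another cysteine cathepsin (chromosome 19, 4855130 to 4860918, plus strand), reached 3.86, 4.73 and 3.96 CPM in TAM against 2.28, 0.75 and 1.05 in M0. It remained scarce, and its groups did not overlap, with the highest M0 value in replicate 1. Its change was 1.61 ± 0.41 (adjusted p = 0.00689), or 2.18 without that library. Tpp1, the gene of a tripeptidyl peptidase (chromosome 7, 105744811 to 105752235, minus strand), had 287, 306 and 299 CPM in TAM and 164, 221 and 227 in M0, a change of 0.54 ± 0.12 (adjusted p = 0.00264). Here M0 replicate 1 was the lowest M0 library, and without it the change was 0.40. Cathepsins did not move as a block. Ctsa, which protects neuraminidase and beta-galactosidase, and Ctsz were called lower, by −0.50 and −0.62 (adjusted p = 0.0351 and 0.0387), with smaller changes of −0.20 and −0.21 without M0 replicate 1. The Ctsa call was lost without any 1 of the TAM libraries (adjusted p up to 0.0864), and the Ctsz call under 11 of 18 alternative settings (adjusted p up to 0.106). Ctsb, the gene of cathepsin B, had a change of −0.11 (adjusted p = 0.496). Its locus overlaps Fdft1 on the opposite strand over 774 bp, so reads of the 2 genes could be mixed where strand was not used. The same holds for Ctsa, which overlaps Pltp over 1515 bp. Ctsd stood at −0.26 with all libraries (adjusted p = 0.382) and at 0.18 without M0 replicate 1 (adjusted p = 0.000228), so leaving out that library turned its sign.

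The membrane proteins had no member called lower with all 12 libraries. Lamp2, a glycoprotein that lines the lysosomal membrane (chromosome X, 38401357 to 38456454, minus strand), held 462, 431 and 444 CPM in TAM and 178, 302 and 310.3 in M0. All TAM libraries were above all M0 libraries, the lowest of which was replicate 1. The change was 0.76 ± 0.17 (adjusted p = 0.00367), or 0.54 without replicate 1. Laptm4a was higher by 0.38 ± 0.09 (adjusted p = 0.00509), with 455, 439.8 and 451 CPM in TAM and 385, 329 and 322 in M0. Cd63, a tetraspanin of late endosomes and melanosomes, had 926, 981 and 900.0 CPM in TAM and 1141, 569 and 589 in M0. M0 replicate 1 was above the TAM libraries and the other M0 libraries were below them. Its change was 0.29 with all libraries (adjusted p = 0.291) and 0.69 without M0 replicate 1 (adjusted p = 1.22e-20). Lamp1, the other main membrane glycoprotein, Mcoln1, a calcium channel gene, and Laptm4b had changes of 0.11, 0.23 and 0.03 and passed the test without that library (0.23, 0.21 and 0.14). Npc1, which exports cholesterol from lysosomes, had 0.09 and, without M0 replicate 1, −0.24 (adjusted p = 2.64e-05). It overlaps Rmc1 on the opposite strand over 967 bp. Scarb2, the carrier of glucocerebrosidase to lysosomes, stood at −0.10 and −0.12 and was called in neither fit.

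Among the glycosidases, Gusb and Man2b1 fell most. Gusb (chromosome 5, 129989011 to 130003049, minus strand) went from 273, 188 and 199 CPM in M0 to 47.9, 53.4 and 49.0 in TAM. No TAM library came within 3 times of an M0 library. It fell by 2.13 ± 0.14 on the log2 scale (adjusted p = 5.4e-07), and the change was −1.95 without M0 replicate 1. Man2b1, the gene of the lysosomal alpha-mannosidase (chromosome 8, 85083270 to 85098282, plus strand), had 85.4, 79.3 and 79.9 CPM in M0 and 28.8, 30.6 and 30.6 in TAM. In this gene M0 replicate 1 lay close to the other M0 libraries. The change was −1.44 ± 0.08 (adjusted p = 1.83e-07) and −1.41 without replicate 1. Naglu, whose product removes N-acetylglucosamine from heparan sulfate (chromosome 11, 101070012 to 101077672, plus strand), went from 207, 138 and 142 to 75.4, 76.9 and 69.4 CPM, a change of −1.14 ± 0.15 (adjusted p = 8.42e-05), or −0.93. Hexa, a subunit of beta-hexosaminidase, and Glb1, beta-galactosidase, changed by −0.89 and −0.85 (adjusted p = 0.00414 and 0.00036), or −0.53 and −0.67 without M0 replicate 1. Glb1 shares its strand and 6172 bp of its locus with Tmppe. This overlap, like those given for other genes, was measured over whole loci, introns included. The merged exons of Glb1 span 3008 bp, and how far its counts are affected is not known. The other 3 glycosidases were not called. Gla, alpha-galactosidase A, had 0.40 (adjusted p = 0.0624), and 0.62 without M0 replicate 1 (adjusted p = 8.38e-07). The sialidase gene Neu1 and the glycogen-degrading Gaa had −0.19 and −0.20, and 0.03 and −0.02 without that library.

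Of 5 sulfatases 2 fell. Arsb, which acts on dermatan and chondroitin sulfate, went from 41.0, 68.2 and 68.7 CPM in M0 to 27.4, 28.4 and 26.8 in TAM, a change of −1.11 ± 0.17 (adjusted p = 0.00027). Sgsh, which acts on heparan sulfate as Naglu does, changed by −0.67 ± 0.14 (adjusted p = 0.00193). Its locus overlaps Card14 on the opposite strand over 1951 bp, and with 3924 counts for Card14 and 4517 for Sgsh over all libraries its values are uncertain where strand was not used. Ids, the iduronate sulfatase gene, stood at 16.7, 53.2 and 52.8 CPM in M0 and 30.7, 32.5 and 31.1 in TAM. The TAM libraries were below M0 replicates 2 and 3 and above replicate 1, and the change of −0.38 (adjusted p = 0.339) became −0.76 (adjusted p = 5.5e-15) without replicate 1. Galns, another sulfatase of glycosaminoglycans, had 0.28 and 0.52, and Arsa, which acts on sulfatide, −0.16 and −0.06. Galns was called higher without M0 replicate 1, and Arsa was called in neither fit.

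Of 5 lipid genes 4 fell. Npc2, the soluble partner of Npc1, Lipa, the acid lipase, Ppt1, a thioesterase that removes palmitate from proteins, and Psap changed by −0.96, −0.73, −0.59 and −0.53 (adjusted p = 0.00354, 0.000233, 0.000332 and 0.00298). The Ppt1 locus overlaps Cap1 on the opposite strand over 129 bp, with 42177 counts for Cap1 and 10418 for Ppt1 over all libraries. Reads of these 2 genes could be mixed there where strand was not used. Lipa held 123, 156 and 164 CPM in M0 and 91.1, 87.1 and 89.1 in TAM, and its groups did not overlap. Asah1, acid ceramidase, was not called (−0.22, adjusted p = 0.344) and was lower without M0 replicate 1 (−0.45, adjusted p = 1.99e-12). In that fit all 5 were lower, between −0.85 for Lipa and −0.38 for Psap. Gnptab, whose enzyme starts the mannose phosphate tag (chromosome 10, 88379132 to 88447329, plus strand), stood at 36.3, 39.1 and 38.8 CPM in TAM and 44.7, 127 and 124 in M0. Replicate 1 was the lowest M0 library, still above TAM. The change was −1.37 ± 0.30 (adjusted p = 0.00284), or −1.73 without it.

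Tfeb and Tfe3 went in opposite directions in TAM. Tfeb (chromosome 17, 47737030 to 47792419, plus strand) had 48.1, 27.5 and 27.9 CPM in M0 and 9.29, 9.21 and 8.53 in TAM. Each TAM library held less than 0.4 times the level of any M0 library. The change was −1.94 ± 0.20 (adjusted p = 1.79e-05), or −1.62 without M0 replicate 1. Tfe3 (chromosome X, 7762560 to 7775202, plus strand) had 80.3, 65.0 and 64.4 CPM in M0 and 101, 103 and 98.9 in TAM, all TAM libraries above all M0 libraries. It rose by 0.53 ± 0.10 (adjusted p = 0.00112), or 0.64. In M0 replicates 2 and 3 Tfeb had a mean of 27.7 CPM and Tfe3 64.7, on a scale that does not correct for length. Per kilobase, TAM held 10.9 ± 0.239 RPKM of Tfe3 and 1.59 ± 0.0741 of Tfeb, and M2 7.15 ± 0.325 and 5.25 ± 0.191.

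**Figure D3:**
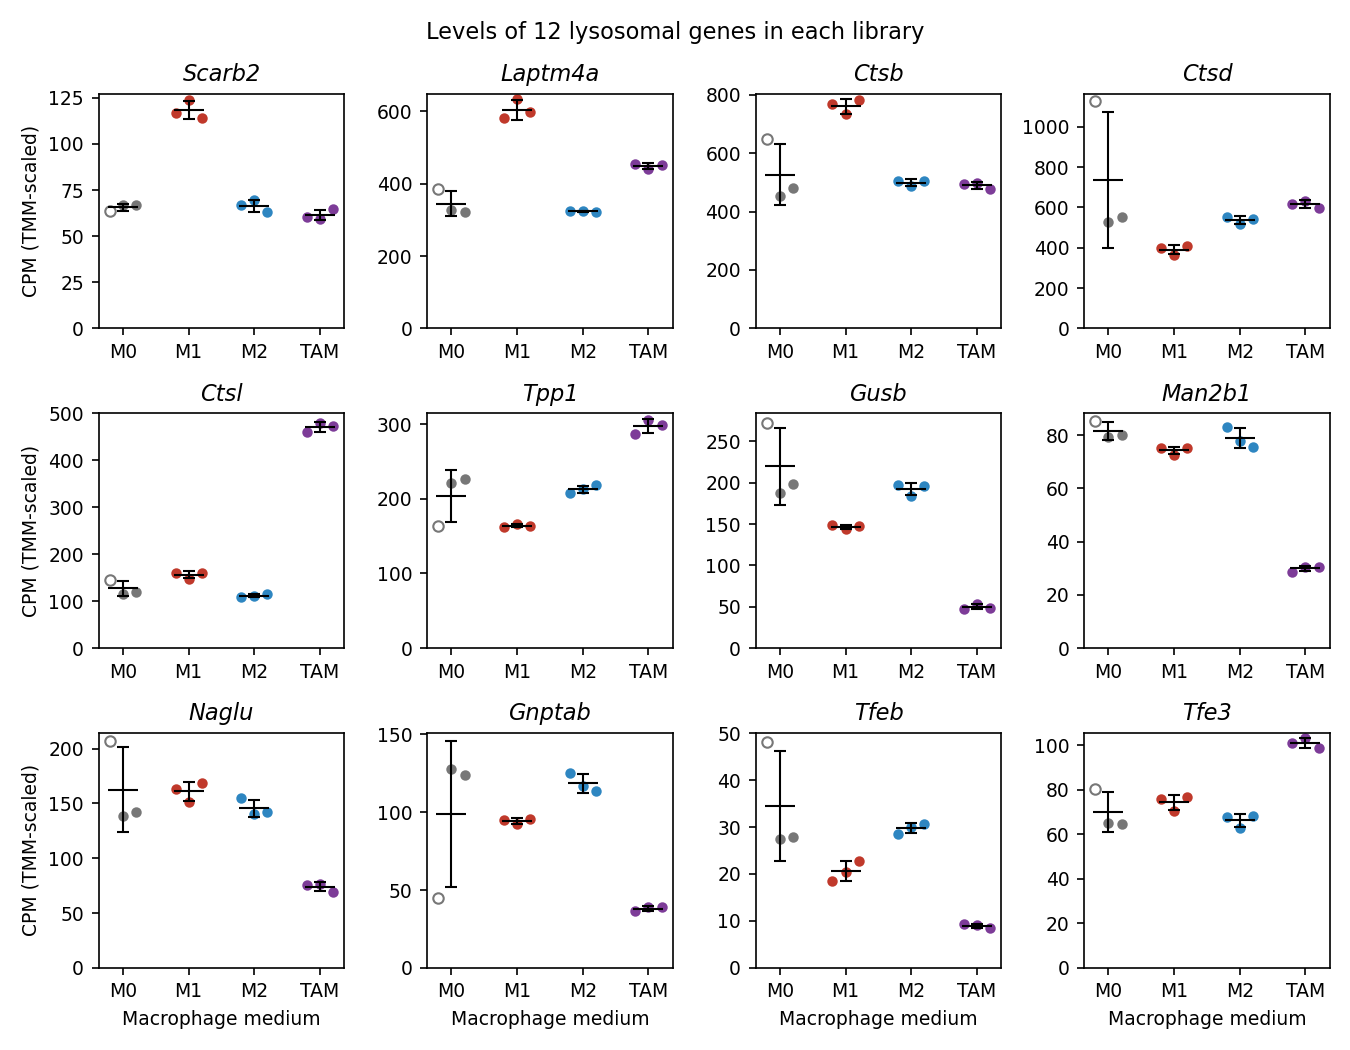
CPM of 12 lysosomal genes (y axis, from 0) in the 4 groups (x axis), with a point for each of 3 libraries, the mean as a horizontal bar and the SD as an error bar. The open circle is M0 replicate 1. Ctsl and Tfe3 are highest in TAM, Scarb2, Laptm4a and Ctsb in M1, and Gusb, Man2b1, Naglu, Gnptab and Tfeb are lowest in TAM.

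M1 versus M0 made the same comparison for medium of macrophages treated with interferon gamma. Of the 36 genes 6 were higher and 5 lower, beside 12.2% and 13.5% of all genes tested, with a median log2 change of −0.10 over the members and −0.02 over all genes. Of 8 membrane protein genes 3 were higher and 1 lower, of 7 protease genes 2 were higher and 1 lower, and 0 of 5 sulfatases and 0 of 5 lipid genes were called. Without M0 replicate 1, 13 were higher and 11 lower (24.3% and 22.9% of all genes). In that fit 4 membrane protein genes were higher and 3 lower, and 2 protease genes higher and 2 lower. Of 8 glycosidase genes 3 were higher and 2 lower there, against 1 and 2 with all 12 libraries. Of the sulfatases 2 were higher and 2 lower, and of the lipid genes 1 was higher and 0 lower. Scarb2 (chromosome 5, 92441314 to 92506833, minus strand) held 117, 124 and 114 CPM in M1 and 63.6, 66.8 and 67.0 in M0. The groups were far apart and M0 replicate 1 lay with the others. The change was 0.85 ± 0.08 (adjusted p = 2.05e-05) and 0.86 without that library. Laptm4a (chromosome 12, 8921664 to 8938742, plus strand) had 581, 633 and 597 CPM in M1 against 385, 329 and 322 in M0, a change of 0.81 ± 0.09 (adjusted p = 7.64e-05), or 0.93. Lamp2 reached 390.3, 394 and 397 CPM in M1, a change of 0.58 ± 0.17 (adjusted p = 0.0298), or 0.40 without M0 replicate 1. Its call was lost without any 1 of the M1 libraries (adjusted p = 0.0765 to 0.0812). Lamp1 (chromosome 8, 13159161 to 13175338, plus strand) fell while Lamp2 rose. It had 340.2, 279.5 and 304 CPM in M1 and 550.3, 432 and 435 in M0, a change of −0.62 ± 0.11 (adjusted p = 0.00269), or −0.45 without M0 replicate 1.

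Among the enzymes in M1, Ctsb (chromosome 14, 63122462 to 63145923, plus strand) rose from 647, 451 and 482 to 768, 732 and 781 CPM. The M1 libraries were above all M0 libraries, the highest of which was replicate 1. The change was 0.53 ± 0.12 (adjusted p = 0.00972), or 0.74 without it. Ctsl was higher by 0.30 ± 0.10 (adjusted p = 0.0473), a call that 11 of 18 alternative settings did not make, and by 0.44 without M0 replicate 1 (adjusted p = 1.35e-11). Gla (chromosome X, 134588149 to 134601125, minus strand) had 21.1, 23.2 and 22.0 CPM in M1 and 19.4, 13.6 and 12.1 in M0, a change of 0.55 ± 0.16 (adjusted p = 0.0291) that missed the threshold in 7 settings (adjusted p up to 0.087) and was 0.82 without M0 replicate 1. Ctsd (chromosome 7, 142375911 to 142388038, minus strand) stood at 399.8, 364 and 409 CPM in M1 and 1127, 529 and 551 in M0. Its M0 replicates 2 and 3 were above M1, and replicate 1 was at about 2 times their level. The change of −0.91 ± 0.24 (adjusted p = 0.0174) was −0.43 without replicate 1 (adjusted p = 4.87e-12), and without any 1 of the M1 libraries the adjusted p was 0.0517 to 0.0678. Neu1 (chromosome 17, 34931253 to 34935953, plus strand) had 53.8, 54.9 and 58.5 CPM in M1 and 113, 75.4 and 75.1 in M0, a change of −0.65 ± 0.14 (adjusted p = 0.00678), or −0.39. Gusb was lower at 148, 144 and 147 CPM, by −0.58 (adjusted p = 0.00792), or −0.36. Tfeb changed by −0.74 ± 0.19 (adjusted p = 0.0167), with 18.5, 20.4 and 22.8 CPM in M1, and lost its call without M1 replicate 1 or M1 replicate 2 (adjusted p = 0.0749 and 0.057). Without M0 replicate 1 it changed by −0.39 (adjusted p = 0.00024). Tfe3 stood at 75.9, 70.4 and 76.7 CPM, with a change of 0.09 (adjusted p = 0.534) and 0.24 without that library (adjusted p = 0.000276). In the fit without M0 replicate 1 the genes Galns, Gaa, Naglu, Arsb, Npc2 and Laptm4b were also called higher, with changes of 0.70, 0.41, 0.24, 0.24, 0.19 and 0.16. Ids, Tpp1, Npc1, Gnptab, Sgsh and Cd63 were called lower there, with −0.44, −0.41, −0.39, −0.37, −0.27 and −0.15.

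**Figure D4:**
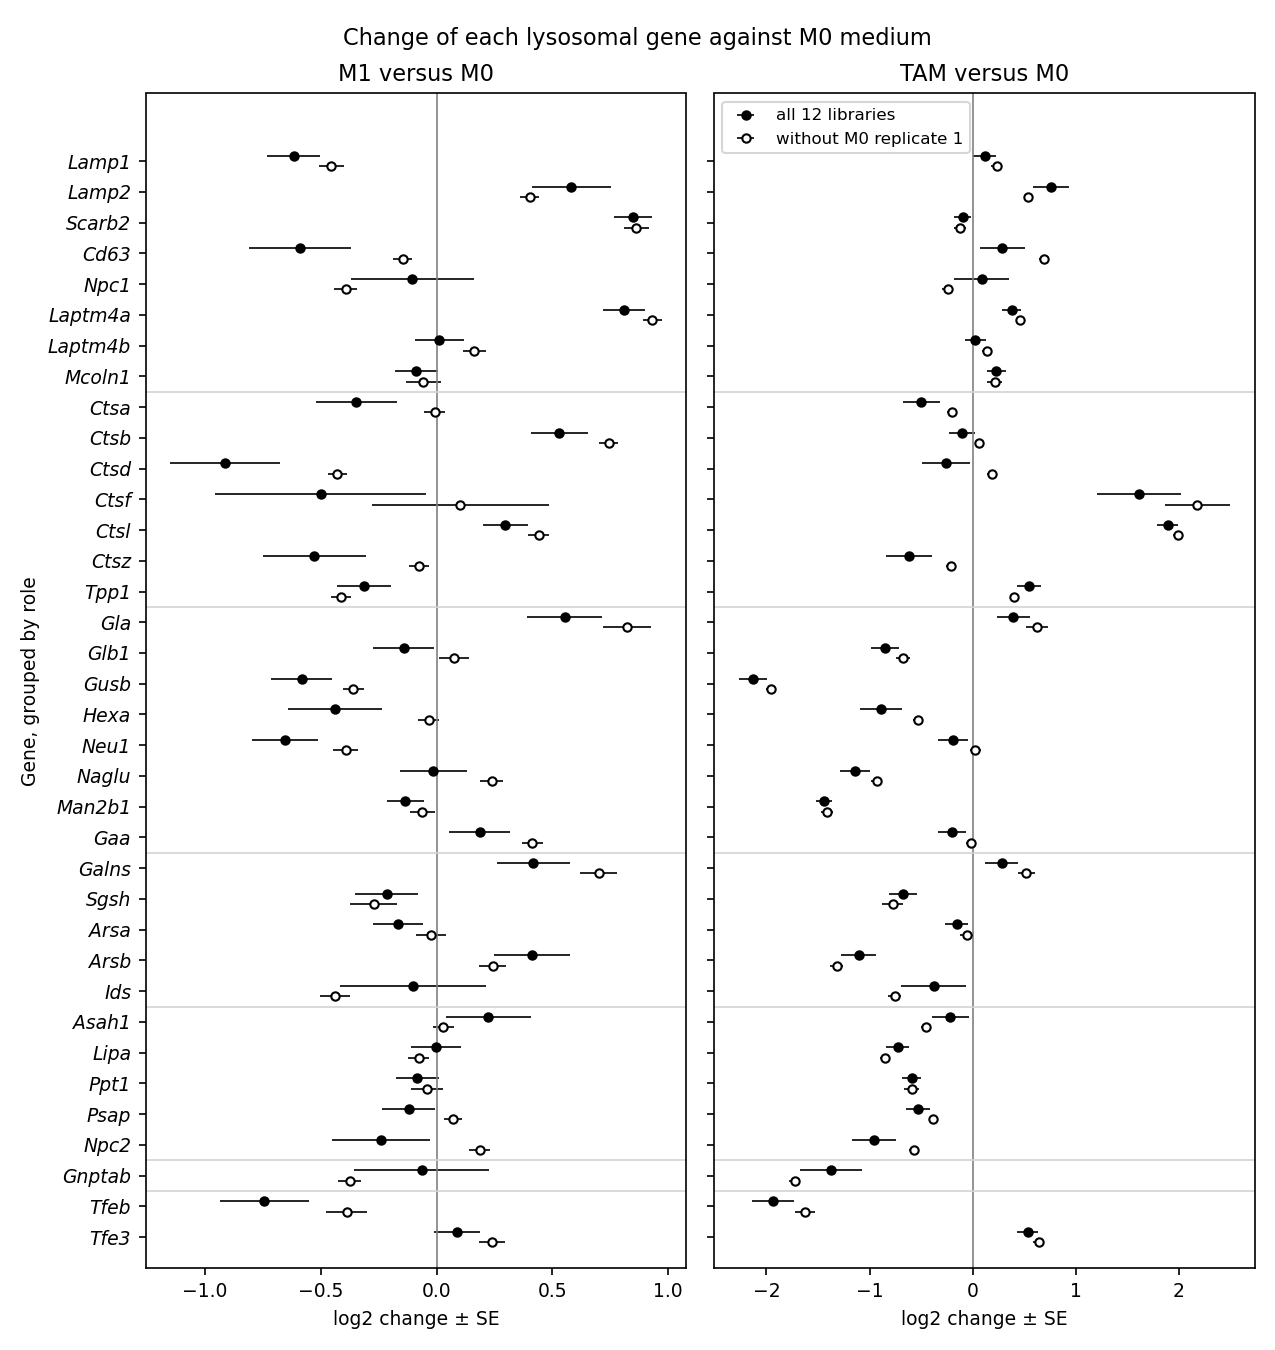
Log2 change ± SE (x axis) of each lysosomal gene (y axis, grouped by role) for M1 versus M0 on the left and TAM versus M0 on the right, with all 12 libraries as filled circles and without M0 replicate 1 as open circles. The panels have different x scales. Both sets of points place Ctsl, Ctsf, Lamp2 and Tfe3 to the right and Gusb, Tfeb, Man2b1 and Gnptab to the left in TAM, while Ctsb, Ctsd, Neu1 and Npc1 change sides of 0 between the fits there.

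TAM versus M1 tested the difference between these media without an M0 library on either side. Of the 36 genes 9 were higher in TAM and 16 lower, beside 19.8% and 23.3% of all genes tested, with median changes of −0.33 over the members and 0.00 over all genes. In the fit without M0 replicate 1, which enters here only through the shared spread, the filter and the scaling, 11 were higher and 23 lower (32.4% and 37.7% of all genes). Of the 6 genes called higher in M1 than in M0, Scarb2, Ctsb and Laptm4a were lower in TAM than in M1, with log2 differences of −0.94 ± 0.08, −0.64 ± 0.12 and −0.43 ± 0.09 (adjusted p = 4.09e-06, 0.00163 and 0.0027). Ctsl was higher in TAM than in M1, and Gla was not called with all 12 libraries (−0.16, adjusted p = 0.457). Lamp2, called higher against M0 in both media, differed by 0.18 ± 0.17 between them (adjusted p = 0.431), and by 0.14 in the other fit (adjusted p = 0.000772). Higher in TAM than in M1 were Ctsf at 2.11 ± 0.42, Ctsl at 1.59 ± 0.10, Cd63 at 0.88 ± 0.22, Tpp1 at 0.86 ± 0.12 and Lamp1 at 0.73 ± 0.11 (adjusted p = 0.00194, 3.27e-07, 0.0076, 0.000137 and 0.000369). Cd63 had 926, 981 and 900.0 CPM in TAM and 508, 528 and 493 in M1, and Lamp1 507, 522 and 504 and 340.2, 279.5 and 304. Neither gene overlapped between the groups. Lower in TAM were Gusb at −1.55 ± 0.13, Arsb at −1.52 ± 0.17, Gnptab at −1.31 ± 0.30, Man2b1 at −1.31 ± 0.08 and Tfeb at −1.19 ± 0.20 (adjusted p = 4.43e-06, 3.1e-05, 0.00422, 2.52e-07 and 0.000605). Arsb stood at 78.0, 79.9 and 78.6 CPM in M1, the highest of the 4 groups, and 27.4, 28.4 and 26.8 in TAM. Tfe3 was higher in TAM by 0.44 ± 0.10 (adjusted p = 0.00397). Of the glycosidases 5 of 8 were lower and only Neu1 was called higher, at 0.46 (adjusted p = 0.0217), a call lost under 6 settings (adjusted p up to 0.0826).

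M2 versus M0 gave 0 called members and 0 called genes of 14591 (0.0%) in edgeR's test. An unadjusted p under 0.05 was found for 980 genes, 2 of them members. With DESeq2 7 genes were called and with limma-voom 0, none of them members. The largest absolute log2 change of a member was 0.50 with all 12 libraries, in Npc2, and 0.30 without M0 replicate 1, in the scarce Ctsf. In the latter fit 0.207% of genes were called higher and 0.134% lower, and the smallest adjusted p of a member was 0.518. Ctsl had 109, 110.1 and 115 CPM in M2, Gusb 198, 184 and 196, Gnptab 125, 117 and 114 and Tfeb 28.6, 30.1 and 30.6. For Tfeb and Tfe3 the changes were −0.21 ± 0.19 and −0.08 ± 0.10 with all libraries, and 0.11 ± 0.09 and 0.04 ± 0.06 without M0 replicate 1.

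Against M2, whose libraries agreed closely with each other, TAM and M1 could be described without M0. In TAM versus M2 9 members were higher and 11 lower (20.7% and 22.6% of all genes tested), and 12 higher and 20 lower in the fit without M0 replicate 1 (34.2% and 35.3%). Ctsl and Ctsf had changes of 2.08 ± 0.10 and 1.89 ± 0.41, Gusb −1.94 ± 0.14, Tfeb −1.72 ± 0.20, Gnptab −1.64 ± 0.30, Man2b1 −1.39 ± 0.08, Arsb −1.29 ± 0.17, Naglu −0.98 ± 0.15 and Tfe3 0.61 ± 0.10 (adjusted p from 9.32e-08 for Ctsl to 0.00332 for Ctsf). Cd63 and Lamp1 were called higher here, at 0.70 and 0.35 (adjusted p = 0.0235 and 0.0286), though both calls were lost under some settings (adjusted p up to 0.0742 and 0.124). In M1 versus M2 5 were higher and 3 lower (9.72% and 7.5% of all genes), and 14 and 11 in the other fit (24.8% and 23.5%). Laptm4a, Scarb2, Gla, Ctsb and Ctsl were higher, at 0.90, 0.83, 0.74, 0.61 and 0.48, and Neu1, Lamp1 and Tpp1 lower, at −0.47, −0.38 and −0.38 (adjusted p = 0.0422, 0.0411 and 0.0468). These 3 calls were lost under 11, 12 and 13 of the 18 settings for Lamp1, Tpp1 and Neu1 (adjusted p up to 0.172, 0.208 and 0.147). The comparisons with M2 share their TAM or M1 libraries with those against M0 and are not independent of them.

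Other genes of the pathway, from lists of the proton pump, further hydrolases, membrane proteins, sorting factors and regulators of TFEB, had calls in both directions. The shares of all genes tested to set beside their counts are 23.3% higher and 27.2% lower in TAM versus M0 and 12.2% and 13.5% in M1 versus M0, or 33.0% and 33.7%, and 24.3% and 22.9%, without M0 replicate 1. Of 17 subunits of the vacuolar proton pump (V-ATPase), which acidifies lysosomes, 2 were higher and 8 lower in TAM versus M0 and 1 higher and 8 lower in M1 versus M0, against 8 and 8 in TAM and 6 and 11 in M1 without M0 replicate 1. Atp6v1h rose in TAM from 94.4 ± 1.66 to 208 ± 6.93 CPM (SD, n = 3), a change of 1.14 ± 0.08, while Tcirg1 and Atp6v0a1, isoforms of the same membrane subunit, changed by −1.51 ± 0.18 and −0.90 ± 0.08. Their changes in the fit without M0 replicate 1 were 1.14, −1.21 and −0.85, in that order. In M1 Atp6v0a1, Atp6v1c1 and Atp6v1g1 changed by −0.78 ± 0.08, −0.60 ± 0.08 and −0.79 ± 0.12, or by −0.69, −0.53 and −0.59 without M0 replicate 1. Of 27 other hydrolases and activators 5 were higher and 7 lower in TAM and 8 higher and 5 lower in M1 (8 and 9, and 12 and 6, without M0 replicate 1). The cathepsin genes Ctso and Ctsh rose in M1 from 0.761 ± 0.133 to 12.2 ± 0.881 CPM and from 12.2 ± 4.53 to 35.1 ± 1.72 CPM, by 3.99 ± 0.27 and 1.52 ± 0.21, and Dpp7, a dipeptidyl peptidase gene, changed by −1.23 ± 0.15. The fit without M0 replicate 1 gave 4.14, 1.90 and −0.96 for Ctso, Ctsh and Dpp7. In TAM the beta-mannosidase gene Manba and the acid sphingomyelinase gene Smpd1 changed by −1.27 ± 0.09 and −1.13 ± 0.14, and the acid phosphatase gene Acp2 by 0.67 ± 0.08. For Manba, Smpd1 and Acp2 the fit without M0 replicate 1 gave −1.36, −0.91 and 0.70. Ctso was lower in TAM than in M1, with a difference of −2.89 ± 0.25.

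Beside the same shares of all genes (23.3% and 27.2% in TAM, 12.2% and 13.5% in M1), 5 of 19 other membrane proteins and transporters were higher and 5 lower in TAM and 2 higher and 3 lower in M1 (9 and 6, and 4 and 6, without M0 replicate 1). Lmbrd1, involved in the export of cobalamin from lysosomes, rose in TAM by 1.27 ± 0.15, and Tpcn1, an endolysosomal ion channel gene, changed by −1.43 ± 0.10 in TAM and −1.02 ± 0.10 in M1. These changes were 1.08, −1.55 and −1.09 without M0 replicate 1. In M1 Ctns, the cystine exporter gene, changed by −0.88 ± 0.11, or by −0.94 without M0 replicate 1. Among 11 sorting factors 1 was higher and 3 lower in TAM and 1 higher and 4 lower in M1 (2 and 6, and 1 and 6, without M0 replicate 1). M6pr, a receptor for the mannose phosphate tag, was higher in M1 at 367 ± 4.93 against 288 ± 5.76 CPM, a change of 0.35 ± 0.08. Nagpa, whose enzyme uncovers the tag that the Gnptab product starts, changed in TAM by −0.99 ± 0.16, and Gga2, an adaptor for the tag receptors, by −0.73 ± 0.09 in TAM and −0.62 ± 0.09 in M1. Of 19 genes that act on or resemble TFEB and TFE3, 18 were tested, all but Tfec, with 2 higher and 7 lower in TAM and 0 higher and 6 lower in M1 (4 and 8, and 2 and 10, without M0 replicate 1). Mitf, the related factor, had 110.2 ± 2.41 CPM in TAM and 457 ± 203 in M0, a change of −2.05 ± 0.29, or −2.38 ± 0.12 without M0 replicate 1. Flcn and Rragc, which take part in the control of TFEB and TFE3 by nutrients, changed in M1 by −0.62 ± 0.10 and −0.72 ± 0.09 and were higher in TAM than in M1 by 0.73 ± 0.10 and 0.67 ± 0.09. Their changes against M0 in M1 were −0.65 and −0.63 without M0 replicate 1. Every gene named from these lists passed edgeR's test with an adjusted p of at most 0.0064 in the comparison given.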

How the data were processed

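The deposited data are raw counts of reads per Ensembl gene, in a single table for 12 libraries. The submitters' processing notes list HISAT2 2.0 and mm10. How reads were counted, with which annotation and with or without strand, is not given in the sources used here. Gene IDs were matched to GENCODE M21 on GRCm38 (mm10), with 55227 of 55487 found. Groups were taken from the sample labels. Genes were filtered by group with filterByExpr, scaled by TMM and fitted over all 12 libraries with robust quasi-likelihood models in edgeR 4.0.16 (R 4.3.3), and 6 comparisons were tested. P-values were adjusted by Benjamini-Hochberg over all genes tested, with calls at an adjusted p under 0.05. CPM are TMM-scaled, and RPKM divide them by merged exon length. Alternatives were RLE and upper-quartile factors, no filter, DESeq2 1.42.0, limma-voom (limma 3.58.1), a replicate block, and each library left out. The tests were checked only on simulated data with a spread near that of the fit without M0 replicate 1 (common dispersion 0.00166). That check does not bear on the 12-library fit, whose common dispersion was 0.0324. None of the 12 pairs of libraries within a group agreed within sampling noise.

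The members and lists were chosen with earlier results of these data known. In M1 and TAM versus M0 and TAM versus M1, the up to 5 members per direction with the largest change among called ones with a mean of at least 1 CPM and no overlap between groups are described by library, and Tfeb and Tfe3 always. From each pathway list at most 3 genes per comparison, those with the smallest adjusted p, were named. Other members are named to account for all 36.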

Additional observations from a re-analysis of the deposited data

How the results depend on the processing

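Over 18 alternative settings, no called member changed direction in its comparison. Of the called members, 19 of 21 in TAM versus M0, 6 of 11 in M1 versus M0, 20 of 25 in TAM versus M1, 16 of 20 in TAM versus M2 and 5 of 8 in M1 versus M2 were called in every setting. The 3 lower members of M1 versus M2 became 0 with RLE factors, 0 without a filter and 1 with upper-quartile factors, and the cause was not tested. Leaving out each library in turn gave 3 to 13 members higher and 3 to 11 lower in M1 versus M0, 6 to 13 and 13 to 18 in TAM versus M0, 6 to 11 and 14 to 23 in TAM versus M1, 5 to 12 and 11 to 20 in TAM versus M2, and 5 to 14 and 0 to 11 in M1 versus M2. The upper ends came without M0 replicate 1, where the common dispersion, the squared variation between replicates, was 0.00166 against 0.0324 with it. In M1 versus M0, 3 members were higher without any 1 of the M1 libraries, 3 lower without M1 replicate 1 or 2, and 8 lower without M0 replicate 2. In TAM versus M2, 5 were higher without M2 replicate 1. In M1 versus M2, 1 was lower without M1 replicate 1 and 0 without any 1 of the other M1, M2 and TAM libraries. Over all genes, calls in M1 versus M0 rose from 3744 to 7056 without that library, in TAM versus M1 from 6279 to 10489, in TAM versus M2 from 6309 to 10407, in M1 versus M2 from 2512 to 7233, and in M2 versus M0 from 0 to 51. For the genes named by rule, 560 alternative values kept their call, 15 lost it and 1 gained it. Same-numbered libraries of different groups had correlations of their deviations from −0.17 to 0.21 in 18 pairs, over 0.1 in 2. The own number gave the best match in 5. With 3 libraries per group this check is weak and cannot settle whether the replicate numbers pair the libraries. With the replicate block, M1 versus M2 had 1 member lower.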
